A study of Mus musculus with 12 samples.

Results

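The variable (V) segments of the mouse T cell receptor were followed through RNA of activated CD8+ T cells. They were taken as every row of the deposited count table whose symbol starts with Trav, Trbv, Trdv or Trgv and a number, which gave 178 of 55291 rows: 130 alpha, 35 beta, 6 delta and 7 gamma V segments. The study relates Dock8, an activator of the small GTPase Cdc42, to a pool of actin that keeps migrating T cells in shape. The cells came from lymph node and spleen and were activated and expanded for 3 days. They then spent 24 h in gel, which was bovine collagen at 2 mg/mL, or in media. The 4 groups were Dock8 KO cells in gel, Dock8 KO cells in media, WT cells in gel and WT cells in media, with 3 libraries each. The labels give 3 mice per group, name no strain, KO allele, sex or age, and do not say whether the gel and media libraries with 1 number share a mouse. The p-values below therefore measure the spread between these libraries. The question put to the segments was how evenly each chain used them, whether usage shifted with genotype or culture, and whether their level moved with the rest of the receptor.

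A receptor chain is built in the thymus by joining 1 V segment to a joining (J) segment, with a diversity segment between them in the beta and delta chains, and the joined exon is spliced to a constant segment. A population grown from many thymocytes therefore carries RNA of most functional V segments at once. In a clone or with a receptor transgene, 1 or a few V segments per chain make up most of the RNA. The alpha locus can rearrange repeatedly, starting with V and J segments that lie next to each other and moving outward. In many mouse strains a block of alpha V segments is present in several copies, which are told apart by the letters d and n in the symbol, and the delta segments lie in and beside the same locus. Older work on antibodies and on beta chains uses V beta numbers, so Trbv12 corresponds to V beta 5 and Trbv13 to V beta 8.

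The printed sequences are the last 60 bases of 12 segments, chosen because the results turn on them and because they show how far copies can be told apart by a read. Capitals mark the codon of the conserved cysteine that closes the V region, after which the joining segment follows in a rearranged chain. All are on the + strand of GRCm38 and were read from the GENCODE M21 transcripts. The beta segments lie on chromosome 6.
Trbv12-2: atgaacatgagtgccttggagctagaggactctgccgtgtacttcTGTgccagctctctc
Trbv12-1: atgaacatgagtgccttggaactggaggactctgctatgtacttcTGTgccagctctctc
Trbv13-2: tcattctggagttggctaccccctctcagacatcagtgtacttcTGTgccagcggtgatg
Trbv13-1: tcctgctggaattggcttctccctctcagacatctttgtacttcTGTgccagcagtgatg
Trbv29: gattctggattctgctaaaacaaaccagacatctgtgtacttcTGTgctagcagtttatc
Trbv19: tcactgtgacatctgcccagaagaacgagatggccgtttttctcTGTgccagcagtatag
The alpha segments lie on chromosome 14.
Trav16n: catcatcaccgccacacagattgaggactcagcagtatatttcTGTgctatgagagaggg
Trav16: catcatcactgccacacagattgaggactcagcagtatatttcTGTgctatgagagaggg
Trav16d-dv11: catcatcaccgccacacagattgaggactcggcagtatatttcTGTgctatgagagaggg
Trav5-4: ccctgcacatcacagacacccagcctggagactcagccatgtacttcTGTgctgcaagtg
Trav9-4: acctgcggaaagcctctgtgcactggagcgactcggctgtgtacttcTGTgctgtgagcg
Trav9d-1: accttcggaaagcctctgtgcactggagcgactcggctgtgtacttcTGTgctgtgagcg

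The 2 most used beta families show the distance between beta copies: Trbv12-2 (chr6:41118851-41119364) and Trbv12-1 (chr6:41113550-41114067) differed at 4 of these 60 bases, and Trbv13-2 (chr6:41121396-41121832) and Trbv13-1 (chr6:41116007-41116468) at 8. Trbv29 lies at chr6:41271394-41271881 and Trbv19 at chr6:41178375-41179048. The alpha copies are closer. Trav16 (chr14:53743104-53743705) differed from Trav16n (chr14:53351028-53351621) at 1 base and from Trav16d-dv11 (chr14:53047287-53047821) at 2, and Trav9-4 (chr14:53676141-53676630) differed from Trav9d-1 (chr14:52792316-52792777) at 1. Trav5-4 lies at chr14:53704007-53704514. Of the 128 alpha segments with a transcript, 118 shared at least 1 window of 50 bases with another V segment, and in 39 every window was shared. Among the 35 beta segments 4 shared any window. How the authors' counting treated a read that fits several copies is not given in the sources used here, so values of single alpha segments are uncertain between copies in a way that the beta values are not.

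Totals ran from 28483064 to 61390702 counts per library, of which 5800 to 14300 fell in alpha V segments, 10527 to 28086 in beta, 49 to 158 in delta and 152 to 462 in gamma. At these depths the 95% exact (Clopper-Pearson) interval of the largest segment's share of raw chain counts had a mean half-width of 0.33 to 0.50 percentage points for alpha and 0.39 to 0.62 for beta. A count of 0 was taken to allow up to 3 counts, apart from that interval. This is a share of up to 0.0210 to 0.0517% for alpha and 0.0107 to 0.0285% for beta. These limits cover counting error only. Of the 178 segments, 151 had a count in all 12 libraries and 7 had none anywhere. The 34 that the annotation calls pseudogenes held 0.760% of the V counts. The Dock8 level was 158 to 168 counts per 1000000 (CPM) in KO gel and 109 to 126 in KO media, against 378 to 449 in WT gel and 362 to 442 in WT media. The cell type label matched its markers, with Cd8a at 516 to 744 CPM and Cd8b1 at 666 to 847 CPM, beside 1.96 to 7.15 CPM of Cd4.

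Libraries numbered 3 of the WT genotype stood apart from the other 10 in alpha usage, in gel and in media alike. Usage here is the count of a segment per kb of exon, as a percent of the same sum over its chain. In both libraries 17 alpha segments lay above the range of the other 10 libraries and 16 below it, while each other pair of libraries that shared genotype and number had 1 to 4 above and 0 to 6 below. All 17 high segments were among the 48 that carry no d or n and lie next to the joining segments, from Trav7-2 to Trav23. Trav5-4, for example, made up 2.25% of alpha usage in WT gel 3 and 2.20% in WT media 3, against 1.12 to 1.75% in the other 10. Trav1, at the far end of the locus, made up 0.156% in WT gel 3 and 0.115% in WT media 3, against 0.340 to 0.683% in the others.

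The whole locus followed this split. The 48 undesignated segments next to the joining segments held 51.6% of alpha usage in WT gel 3 and 51.9% in WT media 3, against 41.5 to 44.5% in the other 10 libraries. The 40 copies with d held 22.5% in WT gel 3 and 23.1% in WT media 3, against 25.5 to 28.5%, and the 34 copies with n held 23.7% and 22.9%, against 25.6 to 28.1%. The 8 undesignated segments at the far end held 2.20% and 2.10%, against 3.35 to 4.001%. The joining segments were split the same way: of the counts in 60 alpha J rows, the 30 that lie next to the V segments, Traj61 to Traj32, held 35.5% in WT gel 3 and 37.4% in WT media 3, against 25.9 to 30.7% in the others. On the beta side Trbv13-3 and Trbv14 lay above and Trbv2 and Trbv15 below the other 10 libraries in both. These blocks were drawn after the values were seen and are described with no test. The segments called between KO and WT in gel, and the shares of the Trav5 and Trav12 families, are given below with and without these libraries. Other comparisons with WT are given only with them.

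**Figure D1:**
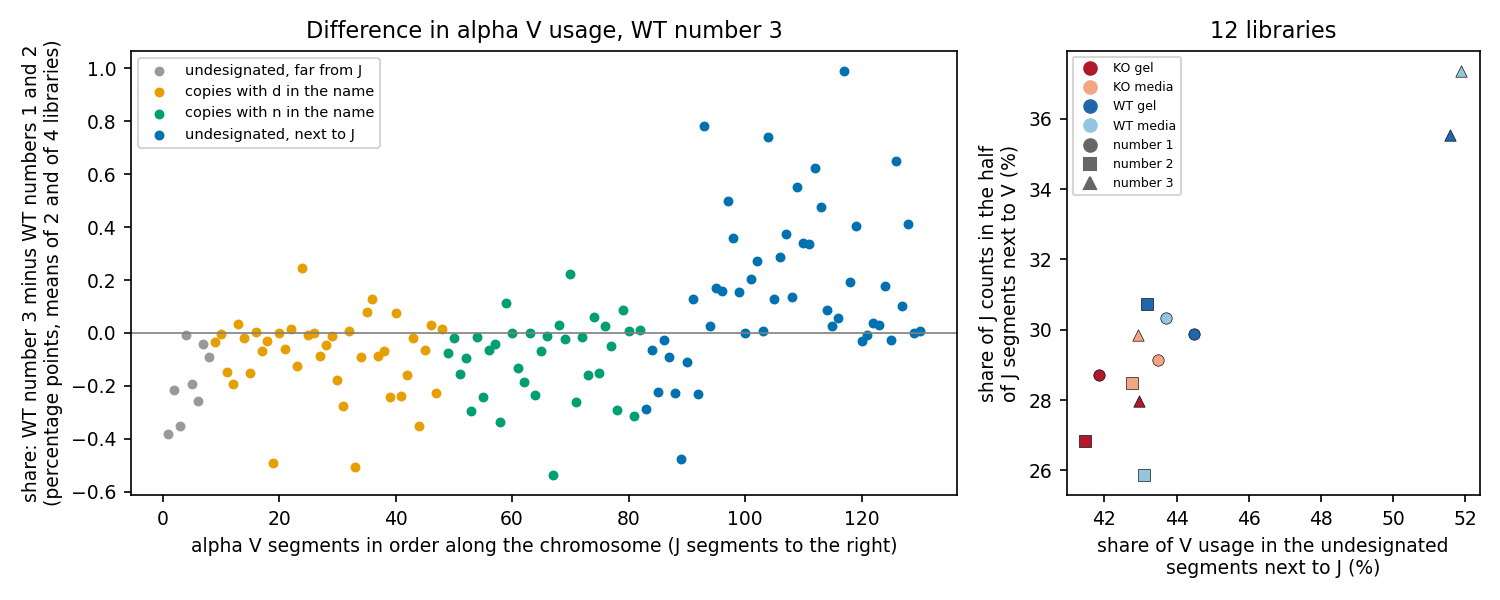
Left, each of the 130 alpha V segments in chromosome order, with the joining segments to the right; the vertical axis is the mean share (%) in the 2 WT libraries numbered 3 minus the mean in the 4 WT libraries numbered 1 and 2. Right, for each of the 12 libraries, the share of alpha J counts in the 30 J segments next to V (%) against the share of V usage in the 48 undesignated segments next to J (%). WT gel 3 and WT media 3 sit at 51.6 and 51.9% on the horizontal axis, and the other 10 between 41.5 and 44.5%.

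The alpha chain was polyclonal at the level of V segments in every library. Between 118 and 123 of the 130 segments were counted per library, 33 to 39 of them made up at least 1% of the usage, and the 25 to 29 most used ones were needed to reach 50%. The 130 include 20 annotated pseudogenes, which held 1.38% of the alpha V counts, so the number counted includes pseudogenes. The largest share of 1 alpha segment was 3.41 to 4.59%. The effective number of segments, the number of equally used segments that would give the same Shannon entropy, was 91.4, 91.8 and 91.4 in KO gel, 91.0, 90.3 and 88.5 in KO media, 91.8, 91.3 and 86.3 in WT gel, and 90.6, 90.5 and 84.2 in WT media. The lowest value within WT gel and within WT media was that of library 3, and KO gel did not overlap KO media. The group means were 91.6 ± 0.230, 89.9 ± 1.28, 89.8 ± 3.05 and 88.4 ± 3.69 in the same order (SD, n = 3 each). With copies merged to families, the effective number was 13.4 to 13.5 in each group.

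The beta chain used fewer segments, but the same ones each time. Between 27 and 30 of the 35 beta segments were counted per library, exactly 17 made up at least 1% of the usage in each of the 12, and 6 were needed to reach 50%. Here too the number counted includes pseudogenes, which are 13 of the 35 and held 0.450% of the beta V counts. Those 17 held 97.8 to 98.3% of beta usage, and any other segment held at most 0.468%, the highest being Trbv4. The largest share of 1 beta segment was 13.3 ± 0.353% in KO gel, 12.6 ± 0.806% in KO media, 12.6 ± 0.539% in WT gel and 11.6 ± 0.258% in WT media (SD, n = 3 each). That segment was Trbv12-2 in 11 libraries and Trbv13-2 in WT gel 1. The effective number was 15.9 ± 0.0597 in KO gel, 16.1 ± 0.132 in KO media, 15.95 ± 0.140 in WT gel and 16.2 ± 0.151 in WT media (SD, n = 3 each). V usage does not resolve clones that share a segment, so these numbers do not count clones.

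**Figure D2:**
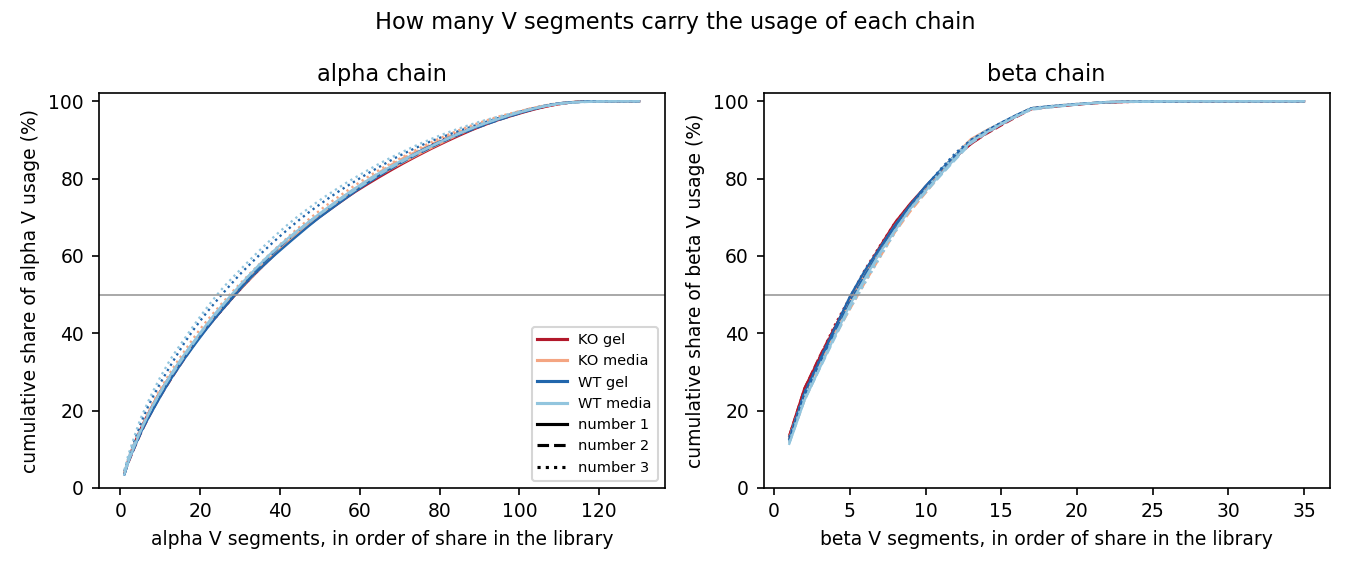
Cumulative share of V usage (%) against the number of V segments, ordered by share within each library, for the alpha chain (left) and the beta chain (right); 1 line per library, coloured by group, and the grey line marks 50%. The alpha lines cross it at 25 to 29 segments, with both WT libraries numbered 3 highest, and the beta lines at 6.

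Effective numbers and largest shares differed little between the groups. Over 24 two-sided exact permutation tests, 4 pairs of groups for 6 measures including the summed levels given below, the lowest p was 0.1, the smallest the design allows, and the lowest value after Benjamini-Hochberg adjustment was 0.343. The pairs at 0.1 among the usage measures were KO gel against KO media for the alpha effective number (91.6 against 89.9) and for the largest alpha share (3.68 ± 0.105% against 3.998 ± 0.144%), and WT gel against WT media for the largest beta share (12.6% against 11.6%). In alpha, libraries of 1 group differed from each other over nearly the same range as libraries of different genotype. In beta the distances between genotypes were mostly larger than those within groups, but overlapped those between cultures of 1 genotype. The distance between 2 libraries, as 50% of the sum of absolute differences of shares, was 7.34 to 13.0% within groups and 7.55 to 15.7% between genotypes in the same culture for alpha. For beta it was 2.27 to 3.59% within groups (median 3.17%) and 3.37 to 6.63% between genotypes in the same culture (median 4.85%). Between the 2 cultures of 1 genotype it was 2.90 to 4.52% for same-numbered libraries and 3.07 to 4.96% (median 4.01%) for libraries of other numbers. No segment stood far above its share in the other libraries. The segment that lay farthest above the median of the other 11 libraries exceeded it by 0.480 to 1.18 percentage points in alpha and by 0.590 to 1.49 in beta. In alpha these were copies of Trav6, Trav12 and Trav16 and, in WT gel 1, Trav7-2, and the largest was Trav16 in WT media 3, at 4.59% against a median of 3.41%. In beta they were Trbv12-2, Trbv12-1, Trbv13-1, Trbv13-2, Trbv13-3 and Trbv29, and the largest was Trbv12-2 in KO gel 2, at 13.5% against a median of 12.01%.

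The same 2 beta segments had the highest mean shares in each group, and the order below them differed between genotypes. Trbv12-2 led with a mean share of 12.4% over the 12 libraries (11.4 to 13.5%), followed by Trbv13-2 with 11.7% (10.9 to 12.6%). Their ranges overlapped. Below them came 4 segments whose ranges also overlapped, Trbv13-1 (7.83%), Trbv15 (7.81%), Trbv29 (7.55%) and Trbv12-1 (7.50%). By their medians these 4 ran Trbv15 (8.11%), Trbv12-1 (8.06%), Trbv13-1 (7.33%) and Trbv29 (7.12%) in KO libraries, against Trbv13-1 (8.33%), Trbv29 (8.04%), Trbv15 (7.85%) and Trbv12-1 (6.90%) in WT libraries. Next were Trbv16 (6.46%), Trbv3 (6.03%), Trbv13-3 (5.30%) and Trbv14 (4.55%). Trbv17, Trbv19 and Trbv1 averaged 4.32%, 4.27% and 3.76%, and Trbv20, Trbv2, Trbv31 and Trbv26 1.90 to 2.44%. Together the Trbv13 family held 23.1 to 26.9% of beta usage and the Trbv12 family 18.2 to 21.9%.

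**Figure D3:**
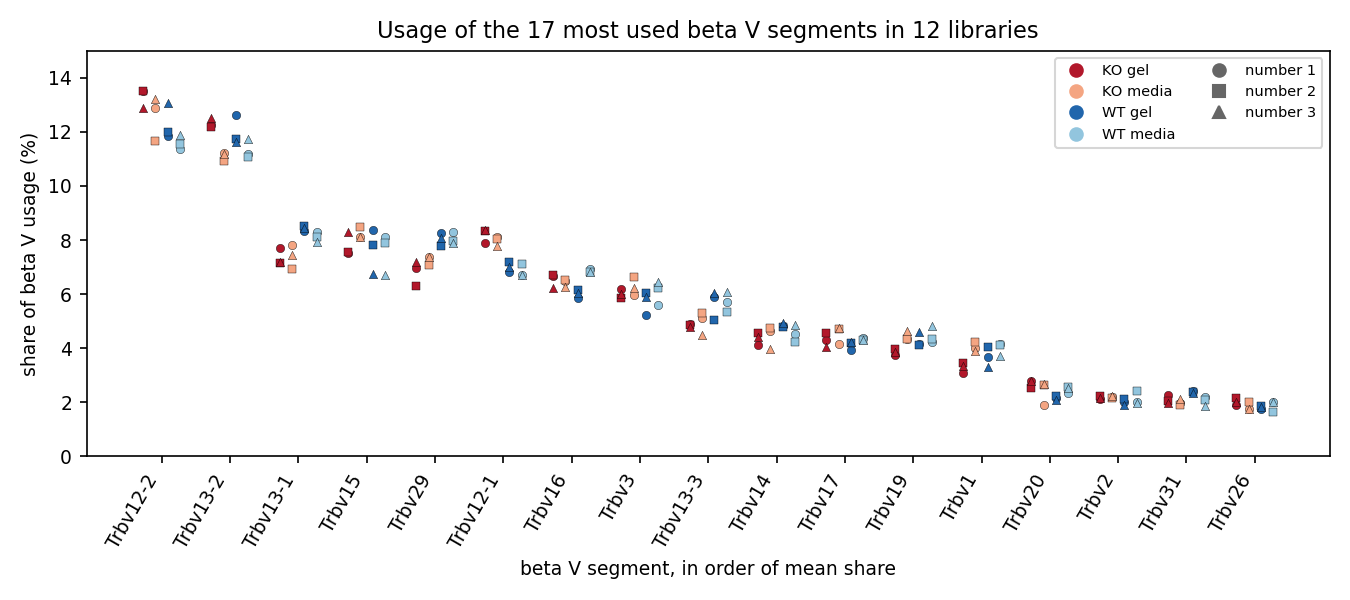
Share of beta V usage (%) of the 17 most used beta segments, in order of mean share; each point is 1 of the 12 libraries, coloured by group and shaped by replicate number. Within a segment the 4 groups run from KO gel on the left to WT media on the right. The WT points of Trbv13-1 and Trbv29 lie above all KO points, and those of Trbv12-1 below them.

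Of these 17 segments, 3 had shares that did not overlap between the 6 KO and the 6 WT libraries, and they were singled out after their values were seen. Trbv12-1 made up 7.77 to 8.38% of beta usage in KO libraries (median 8.06%), against 6.71 to 7.20% in WT libraries (median 6.90%). Trbv29 made up 6.30 to 7.39% in KO libraries (median 7.12%), against 7.78 to 8.29% in WT libraries (median 8.04%), and Trbv13-1 6.93 to 7.82% in KO libraries (median 7.33%), against 7.92 to 8.52% in WT libraries (median 8.33%). As a background, 1.36% of all 19010 genes tested had levels that did not overlap between the 6 KO and the 6 WT libraries. That figure is for levels and not for shares within a chain, so it gives no expected count for the segments. The 6 libraries of a genotype come from at most 3 mice if gel and media share them, so the split rests on few animals. With the library size replaced by the beta V total, edgeR's quasi-likelihood test gave Trbv12-1 a log2 fold change of 0.23 (SE 0.067, adjusted p = 0.0443) for KO against WT in gel and 0.21 (adjusted p = 0.651) in media. It gave Trbv29 -0.24 (adjusted p = 0.0541) in gel and -0.15 (adjusted p = 0.923) in media, and Trbv13-1 -0.20 (adjusted p = 0.0908) in gel and -0.14 (adjusted p = 0.923) in media.

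In the alpha chain the 3 copies of Trav16 were the most used family per segment. Trav16n held a mean of 3.70% of alpha usage over the 12 libraries (3.30 to 4.12%), Trav16 3.53% (2.86 to 4.59%) and Trav16d-dv11 2.33% (2.09 to 2.61%), but with 1 to 2 differences in the printed 60 bases the division between the copies is uncertain. Next came Trav12-2 (2.54%), Trav3-3 (2.53%), Trav13-1 (2.36%), Trav6-6 (1.88%), Trav3n-3 (1.85%), Trav12n-3 (1.75%) and Trav6n-7 (1.68%). Their ranges overlapped, and Trav12n-3 varied most, with 0.856 to 2.74%. The 10 most used alpha segments held 22.7 to 26.2% of the usage, against 76.1 to 78.1% for the 10 most used beta segments.

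Summing copies to families avoids the division between copies, though not reads that the counting may have lost or doubled. By family Trav6 with 15 rows was the largest, at 13.8 to 15.2%. Of 14 alpha families with a mean share of at least 1%, the KO and WT libraries did not overlap in 2, and of 14 such beta families in 1, Trbv29. The 1.36% of all genes given above is again for levels and not for shares. They were again picked out after the values were seen. Trav12 with 10 rows made up 10.4 to 11.7% in KO libraries (median 10.5%), against 8.88 to 9.85% in WT libraries (median 9.46%). Trav5 with 9 rows made up 2.67 to 2.77% in KO libraries (median 2.71%), against 2.97 to 3.75% in WT libraries (median 3.18%), and 2.97 to 3.19% without the WT libraries numbered 3. WT Trav12 shares were 9.23 to 9.85% without those libraries. Leaving libraries out can only narrow the WT range, so this could not have undone either split. Of 35 single alpha segments with a mean share of at least 1%, 0 split the genotypes in this way.

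Delta and gamma V segments, which pair in gamma delta T cells, were counted at a low level throughout. Their summed level was 2.29 ± 0.130 CPM for delta in KO gel, 2.05 ± 0.0240 in KO media, 2.33 ± 0.385 in WT gel and 2.51 ± 0.446 in WT media, and for gamma 6.51 ± 0.302, 7.50 ± 0.340, 6.76 ± 0.691 and 6.96 ± 0.525 CPM in the same order (SD, n = 3 each). Trgv2, a gamma segment on chromosome 13, was the most abundant, with 3.09, 3.52 and 3.79 CPM in KO gel, 4.73, 4.50 and 5.36 CPM in KO media, 3.49, 3.46 and 4.63 CPM in WT gel, and 4.59, 4.08 and 4.42 CPM in WT media. All 3 KO gel libraries lay below the 3 KO media libraries. Of the others, Trgv4 (1.47 to 2.17 CPM), Trdv1 (0.673 to 1.43 CPM) and Trgv1 (0.487 to 1.13 CPM) reached 1 CPM in at least 1 library. Trdv4, listed here as a marker of gamma delta T cells, was at 0 in at least 1 library and never above 0.264 CPM. The constant segments were higher than the V segments, with Trdc at 10.9 to 16.6 CPM and Trgc2 at 9.71 to 18.2 CPM.

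The level of the alpha chain as a whole was lowest in KO gel. The summed counts of the 130 alpha segments were 187.0, 185.5 and 189.0 CPM in KO gel, 224.8, 204.3 and 207.2 CPM in KO media, 228.8, 230.7 and 235.9 CPM in WT gel, and 229.9, 222.0 and 233.7 CPM in WT media. The 3 KO gel libraries lay below all 9 others. The mean of 187.2 ± 1.72 CPM in KO gel stood against 212.1 ± 11.1 CPM in KO media and 231.8 ± 3.64 CPM in WT gel (SD, n = 3 each), and the exact permutation p of either comparison was 0.1. The summed beta level was 381.0 ± 7.15 CPM in KO gel, against 411.9 ± 25.7 CPM in KO media and 425.9 ± 21.4 CPM in WT gel, without overlap and with the same p. It was 413.0 ± 41.4 CPM in WT media. CPM here is relative to the TMM scaled total. Relative to total counts alone, the alpha sum kept KO gel below KO media and WT gel without overlap (192 against 213 and 222), and the beta sum did not (392 against 413 and 407 with overlap). In bulk RNA, fewer cells that carry a transcript and less of it per cell cannot be told apart.

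The constant segment Trac was also lowest in KO gel. Trac, the only constant segment of the alpha chain, averaged 399 ± 6.08 CPM in KO gel, 442 ± 20.7 in KO media, 471 ± 8.67 in WT gel and 471 ± 7.52 in WT media (SD, n = 3 each). Alpha V counts per Trac count were 0.469 in KO gel, 0.480 in KO media, 0.492 in WT gel and 0.486 in WT media. This ratio was lower in KO gel than in WT gel without overlap (exact permutation p = 0.1), so the V sum was lower there by more than Trac, and KO gel overlapped KO media. Trac was lower in KO than in WT cells in gel, with a log2 fold change of -0.24 and an adjusted p = 0.0157 by edgeR's quasi-likelihood test. That call ended with total counts alone (-0.14, adjusted p = 0.350). The alpha joining segments were not lowest in KO gel, with a sum of 77.8 ± 4.65 CPM in KO gel, 60.9 ± 1.95 in KO media, 70.3 ± 14.6 in WT gel and 81.2 ± 20.7 in WT media. Within KO they ran the other way, with 72.4 to 80.7 CPM in gel and 58.9 to 62.8 CPM in media.

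**Figure D4:**
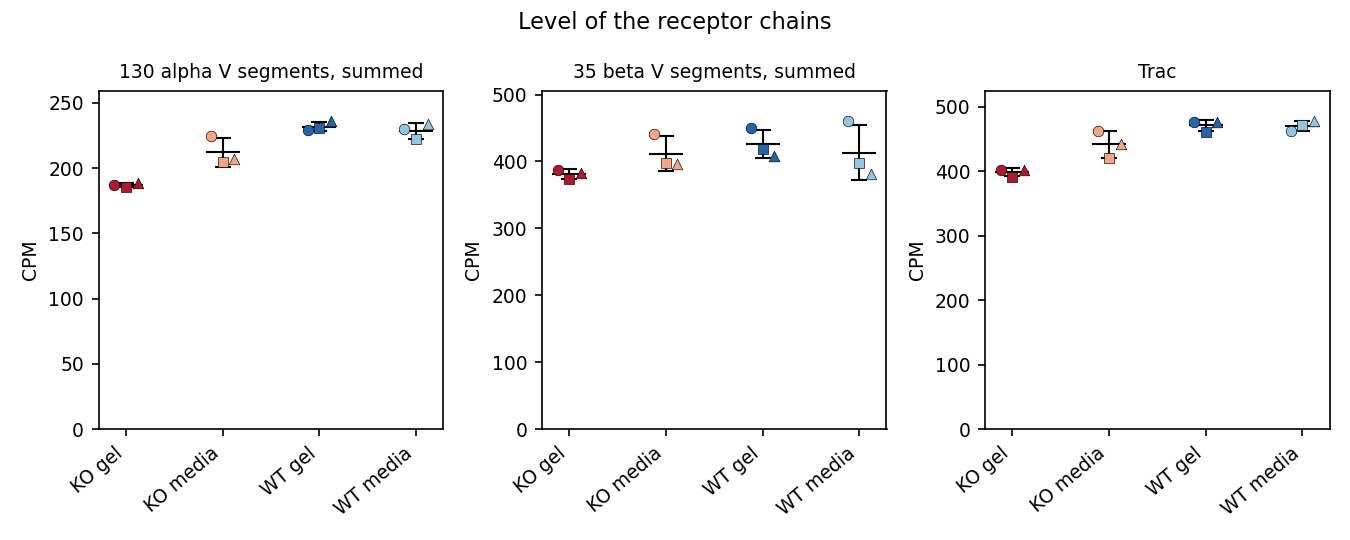
Summed level of the 130 alpha V segments (left), the 35 beta V segments (middle) and the level of Trac (right), in CPM of the TMM scaled total; points are libraries (circle, square and triangle for numbers 1, 2 and 3), bars are the mean and SD of 3 libraries. The 3 KO gel points lie between 185.5 and 189.0 CPM in the left panel, below all others.

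Single segments were tested with edgeR's quasi-likelihood test fitted to all 12 libraries and 19010 genes, with p-values adjusted by Benjamini-Hochberg over all of them. Of the 178 segments, 144 passed the filter on low counts: 113 alpha, 24 beta, 3 delta and 4 gamma. The 34 left out had at most 13 counts in any library, and 27 of them are annotated as pseudogenes.

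Between KO gel and KO media, 6 of the 144 segments were lower in gel and 0 higher, against 20.8% of all genes called (9.74% lower). The 6 were Trbv19, Trbv1, Trgv2, Trav16n, Trav9n-3 and Trav9-4. Trbv19, the V beta 6 segment, had 21.3, 21.7 and 21.7 CPM in KO gel and 27.9, 25.1 and 26.8 CPM in KO media, a log2 fold change of -0.30 (SE 0.070, adjusted p = 0.00831). In WT gel it had 27.5, 25.2 and 27.6 CPM and in WT media 28.4, 25.1 and 26.9 CPM, so that KO gel lay below all other libraries. Trbv1, the V beta 2 segment, had 12.9, 13.9 and 13.9 CPM in KO gel and 18.96, 18.1 and 16.5 CPM in KO media (-0.40, SE 0.11, adjusted p = 0.0241), and the 2 groups did not overlap. The fold changes of the other 4 were -0.49 for Trgv2, -0.30 for Trav16n, -0.42 for Trav9n-3 and -0.62 for Trav9-4, with adjusted p of 0.0262 to 0.0440. The median log2 fold change of the 144 segments was -0.12, against -0.01 for all genes, and 110 of them lay below 0. The share of segments called, 4.17%, was below the 20.8% of all genes. With total counts alone 1 of the 6 calls was left, Trbv1, and without KO media 1 only Trbv19. Without KO gel 1, 2 or 3, or without KO media 3, 2 calls were left, and without KO media 2 there were 4. Without the 2 WT libraries numbered 3, which also moved the number of genes tested to 19429, 12 segments were called lower and 0 higher, the 6 among them, against 29% of all genes.

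In gel, 17 of the 144 segments were lower in KO than in WT cells and 0 higher, against 14.8% of all genes called (7.71% lower). They were 13 of 113 alpha and 4 of 24 beta segments tested. By place the alpha calls were 10 of 49 undesignated segments, 2 of 35 copies with d and 1 of 29 copies with n. Undesignated segments were also the ones raised in the WT libraries numbered 3, and the calls without those libraries are given below. Trav5-4 had 2.03, 1.85 and 1.89 CPM in KO gel, 2.72, 2.44 and 2.77 CPM in KO media, 3.10, 3.58 and 4.68 CPM in WT gel, and 3.37, 2.85 and 4.52 CPM in WT media. KO gel lay below all other libraries, and in WT the highest value was that of library 3 in either culture. Its log2 fold change in gel was -0.98 (SE 0.19, adjusted p = 0.00428). Trav9-4 had 1.48, 1.20 and 1.17 CPM in KO gel and 2.24, 2.55 and 2.97 CPM in WT gel (-1.02, SE 0.20, adjusted p = 0.00482), beside 2.00, 1.86 and 2.05 CPM in KO media and 2.08, 2.20 and 3.31 CPM in WT media. Again KO gel was lowest. Trav15-2-dv6-2, a segment that both alpha and delta chains can use, had 0.554, 0.574 and 0.648 CPM in KO gel and 1.08, 1.15 and 1.41 CPM in WT gel (-1.04, SE 0.24, adjusted p = 0.0111). Trav9d-1 had 0.475, 0.674 and 0.449 CPM in KO gel and 0.913, 1.31 and 1.31 CPM in WT gel (-1.13, SE 0.26, adjusted p = 0.0106). The KO and WT gel libraries overlapped in neither.

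The beta calls were smaller changes of abundant segments. Trbv19 had a log2 fold change of -0.31 (SE 0.071, adjusted p = 0.00947), in a comparison that shares the KO gel libraries with the one within KO. Trbv29, the V beta 7 segment, had 24.6, 21.4 and 25.1 CPM in KO gel and 34.0, 29.7 and 30.2 CPM in WT gel, a log2 fold change of -0.40 (SE 0.10, adjusted p = 0.0162). Trbv13-1 and Trbv13-3, both of the V beta 8 family, had 26.5 ± 1.59 and 16.2 ± 0.392 CPM in KO gel, against 34.0 ± 1.53 and 21.2 ± 2.44 CPM in WT gel (SD, n = 3 each), with fold changes of -0.36 and -0.39 on the log2 scale and adjusted p of 0.0262 and 0.0266. The third member, Trbv13-2, had 41.2 ± 1.19 CPM in KO gel and 44.9 ± 4.45 CPM in WT gel and did not pass (adjusted p = 0.348). Trav14-3 (-0.72, adjusted p = 0.0196) and Trav21-dv12 (-0.94, adjusted p = 0.0227) completed the 10 with the lowest p. The remaining 7, Trav13-1, Trav9-2, Trav16, Trav7-5, Trav14n-3, Trav9d-4 and Trav14-2, were lower by 0.49 to 0.76 on the log2 scale.

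**Figure D5:**
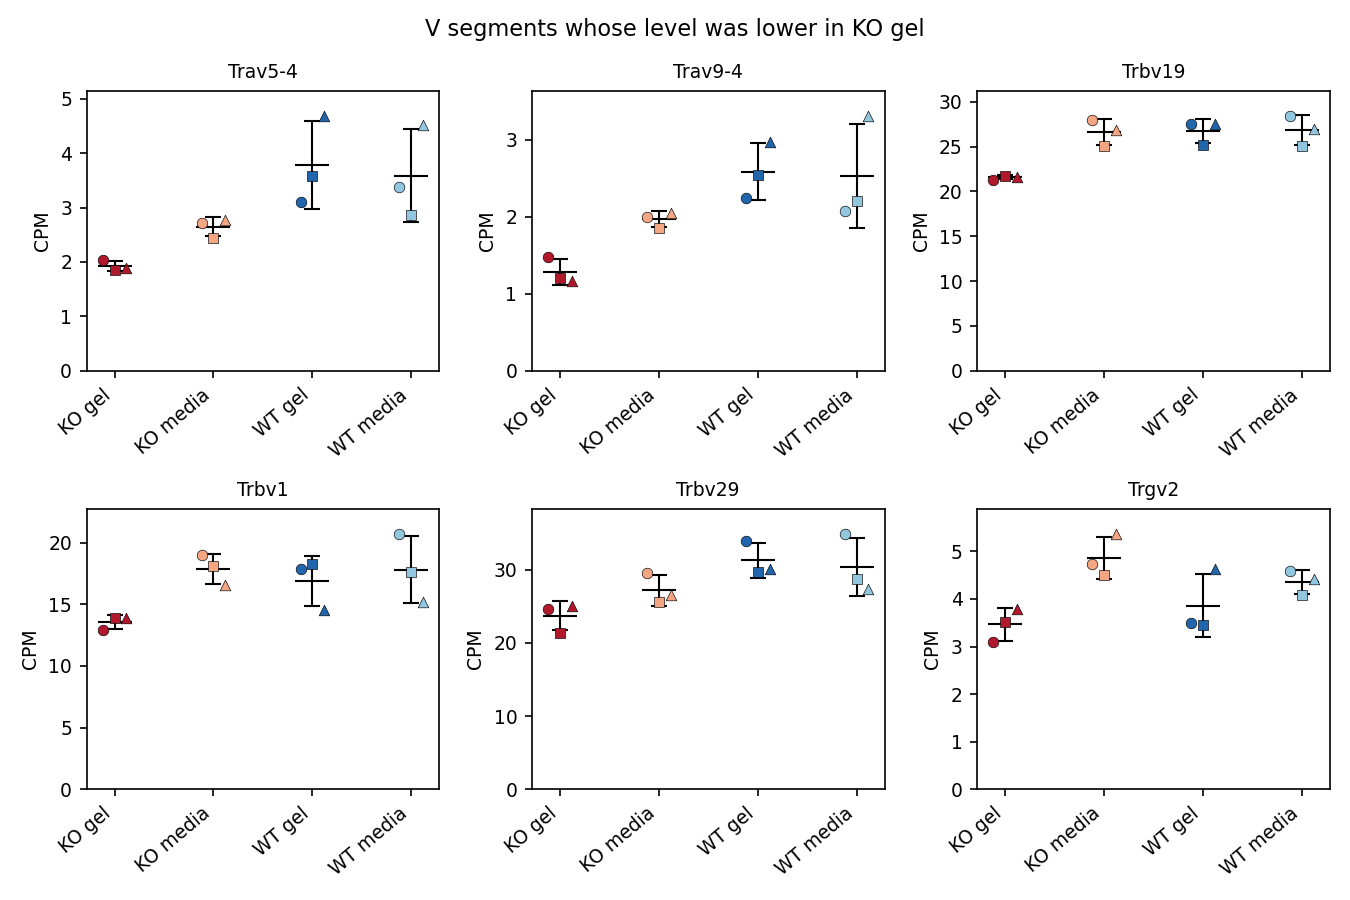
Level (CPM of the TMM scaled total) of 6 V segments called lower in KO gel than in KO media, in WT gel or in both; points are libraries (circle, square and triangle for numbers 1, 2 and 3), bars are the mean and SD of 3 libraries. For Trav5-4, Trav9-4 and Trbv19 the 3 KO gel points lie below all others, and the WT triangles are the highest points of Trav5-4 and Trav9-4.

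The median log2 fold change of the 144 segments for KO against WT in gel was -0.26, against 0.00 for all genes (-0.0003), and 117 lay below 0. By place in the alpha locus it was -0.35 over the 49 tested undesignated segments, -0.19 over the 35 copies with d and -0.29 over the 29 copies with n. Without the 2 WT libraries numbered 3, 15 segments were called lower and 0 higher, 12 of them among the 17, against 17.6% of all genes. Trav13-1, Trav9-2, Trav16, Trav7-5 and Trav14-2, all of them undesignated, were no longer called. With total counts alone, which moved the median of all genes by 0.10 and their calls to 1871 higher and 409 lower, against 1354 and 1465 with TMM, 5 calls were left: Trav5-4, Trav9-4, Trav9d-1, Trav15-2-dv6-2 and Trav21-dv12. Without 1 library the count was lowest, at 5, without KO gel 2. It was 8 without KO gel 1 or 3, 9 without WT gel 3, 11 without WT gel 1 and 13 without WT gel 2. With copies summed to families, 11 of 47 families were lower and 0 higher, against 15.2% of all genes: Trav5, Trav6, Trav7, Trav9, Trav13, Trav14, Trav15, Trav16, Trav21, Trbv19 and Trbv29.

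Some differences were still called when the level of the chain was taken out. Relative to the alpha V total, the same test called 9 alpha segments between KO and WT in gel, 5 lower and 4 higher, and relative to the beta V total 1 beta segment, Trbv12-1. The median of all genes on these scales was 0.31 and 0.16, and 43.9% of all genes were called on the alpha scale and 10.1% on the beta scale. The adjustment ran over all genes, so on the alpha scale their shift made it more lenient for the segments. Unadjusted p of the 9 by the same test ran from 0.00157 to 0.0210. No adjustment over the alpha segments alone was made. The 5 lower ones were among the 17 called above: Trav5-4 (-0.67), Trav9-4 (-0.71), Trav15-2-dv6-2 (-0.73), Trav9d-1 (-0.82) and Trav21-dv12 (-0.62). All of them but Trav9d-1 were also among the segments that lay above the other libraries in both WT libraries numbered 3. The fit relative to the chain total was not repeated without those libraries. Trav5-4 made up 1.23, 1.12 and 1.14% of alpha usage in KO gel, against 1.53, 1.75 and 2.25% in WT gel. The higher ones were Trav3d-3 (0.51), Trav7d-5 (0.80), Trav9d-2 (0.74) and Trav13-5 (1.01), of which Trav3d-3 made up 1.94, 1.62 and 1.81% in KO gel, against 1.21, 1.36 and 1.22% in WT gel. Each of Trav3d-3, Trav7d-5 and Trav9d-2 shares every window of 50 bases with other segments, and the copies with d as a whole held 27.0, 28.5 and 27.7% in KO gel, 25.9, 25.9 and 25.6% in KO media, 25.5, 26.3 and 22.5% in WT gel, and 26.6, 26.4 and 23.1% in WT media. The 3 KO gel libraries were the highest of the 12. Between KO gel and KO media 0 alpha and 0 beta segments were called relative to their chain's total by edgeR, against 28% and 13% of all genes.

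No segment was called in the other comparisons by edgeR's quasi-likelihood test. Between WT gel and WT media the count was 0 of 144, against 0.0368% of all genes called. There 12 segments, 9 higher and 3 lower, had an unadjusted p under 0.05, against 5.43% of all genes, and DESeq2 called 0. Between KO and WT in media it was 0, against 0.189% of all genes called. There 18 segments, 9 higher and 9 lower, were under 0.05 before adjustment, against 7.49% of all genes, and DESeq2 called 0. The interaction of genotype and culture, which asks whether the gel response differed between genotypes, gave 0 calls, against 3.35% of all genes called. Before adjustment 12 segments were under 0.05, all 12 with a lower response in KO, against 19.6% of all genes (9.29% lower). DESeq2 called 0, and the lowest adjusted p by edgeR was 0.11, for Trbv19 (-0.30). The medians of the 144 segments were 0.04, -0.07 and -0.16 in these comparisons, against -0.01, -0.01 and 0.00 for all genes. By family, Trav9 was called in the interaction (-0.44, adjusted p = 0.0176), the only one of 47, against 3.71% of all genes. The lack of calls in WT gel against WT media does not by itself set the genotypes apart, since the difference itself was tested only by the interaction.

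Among the partners of the V segments, a list of constant, CD3, coreceptor, signalling and recombination genes had 21 rows in the table, of which 18 were tested. Of these, 2 were lower and 0 higher in KO gel than in KO media, against 20.8% of all genes called: Trgc2 (-0.54, adjusted p = 0.0037), a constant segment of the gamma chain, and Cd3g (-0.21, adjusted p = 0.0417), a subunit of the CD3 complex. Trgc2 averaged 11.8 CPM in KO gel and 17.3 CPM in KO media. In gel 2 were lower and 0 higher in KO than in WT cells, against 14.8% of all genes called: Trac and Zap70 (-0.24, adjusted p = 0.0373), the kinase that binds the phosphorylated receptor, and 0 passed in the other 3 comparisons. The calls of Cd3g, Trac and Zap70 ended with total counts alone. Cd8a, Cd8b1, Trbc1 and Trbc2 passed in none of the 5. Of 84 joining and diversity rows 72 were tested, and 0 passed in any of the 5 comparisons by edgeR. Their median log2 fold change was 0.28 for KO gel against KO media and 0.42 in the interaction. It was -0.14 for WT gel against WT media, and for KO against WT 0.01 in gel and -0.36 in media. The recombinase genes were near silent, with at most 8 counts of Rag1 and 1 of Rag2 in a library, all Rag1 counts being in KO gel, while Dntt, which adds bases at the joints, had 148 to 456 counts.

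Several measures moved with KO gel beside the V segments. KO gel libraries showed 28362 to 30104 genes with a count at a common depth, against 24336 to 25142 in the other 9. Cd4 was higher in KO gel than in KO media (0.81, adjusted p = 0.0348) and than in WT gel (1.15, adjusted p = 0.00958), at 3.85, 4.87 and 7.15 CPM. The sum of the 3 CD4 T cell markers was 31.3 to 36.2 CPM in KO gel, 33.7 to 35.9 in KO media, 28.7 to 35.7 in WT gel and 25.1 to 36.9 in WT media. Of the 4 gamma delta T cell markers tested, Sox13 and Zbtb16 were higher in KO gel than in KO media, against 2111 of all 19010 genes called higher. The call of Sox13 was lost in 4 of 20 alternatives. Between KO and WT in gel 0 of the 4 were called, with a median log2 fold change of 0.01. The sum of 5 gamma delta T cell markers was 18.7 to 21.2 CPM in KO gel, 16.1 to 18.9 in KO media, 18.0 to 22.1 in WT gel and 17.8 to 24.0 in WT media. Natural killer cell markers summed to at most 1.33 CPM, and macrophage and neutrophil markers to less than 1 CPM. Immunoglobulin V segments, with 8 to 32 counts per library, were at 0.548 to 0.844 CPM in KO gel, against 0.206 to 0.491 CPM in the other 9. T cell receptor V pseudogenes, by contrast, were at 4.71 ± 0.415 CPM in KO gel, 4.64 ± 0.340 in KO media, 5.02 ± 0.140 in WT gel and 4.93 ± 0.125 in WT media (SD, n = 3 each). The part of these measures in the lower V levels of KO gel was not tested.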

How the data were processed

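Total RNA of the 12 cultures was made into libraries after removal of ribosomal RNA, per the labels' protocols. The authors deposited 1 table of raw counts per gene symbol and library. The submitters' processing notes list HISAT2, featureCounts, Picard, SAMtools, FastQC and MultiQC and the build GRCm38 (mm10). Their versions, the annotation, the strand setting and the treatment of duplicates and of multi-mapping reads were not given in the sources used here. Counts in near-identical alpha copies could be split, lost or doubled by those settings.

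Positions, types and lengths came from GENCODE M21, which matched 170 of 178 segments, and the other 8 took their position from RefSeq; a segment with no length took the median of its chain. Usage was the count per kb of exon over its chain. Counts were kept by filterByExpr, scaled by TMM and fitted to the 4 groups with edgeR 4.0.16 (quasi-likelihood, robust) in R 4.3.3 with limma 3.58.1, over 19010 genes; DESeq2 1.42.0 was an alternative. The SE of a log2 fold change was its size divided by the square root of F. An adjusted p under 0.05 was a call. The fit was tested on simulated data. Permutation tests were exact and two-sided.

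The rule named the 10 most used segments of alpha and beta, up to 10 called segments per comparison and direction, the segment farthest above the other libraries, and delta and gamma segments of at least 1 CPM. Members, lists and blocks were chosen with earlier results of these data known. The summed level of the B cell marker list is not reported here.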

Additional observations from a re-analysis of the deposited data

How the results depend on the processing

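Across 20 alternatives, 457 of 620 repeats of the called log2 fold changes of V segments and partner genes remained past an adjusted p of 0.05, 163 did not, and 0 changed sign. Some alternatives left out a library of neither group compared, which reaches a call only through shared spread, scaling and filter, so the 457 overstates stability. Without a library of the groups compared, KO gel against KO media gave 1 to 4 calls and KO against WT in gel 5 to 13. Trav5-4, Trav9-4 and Trav15-2-dv6-2 (KO against WT in gel) were called in all 20 alternatives. For KO gel against KO media (6 calls), the count was 1 with total counts alone. It was 11 with no filter or with only the 6 libraries compared. It was 2 without WT gel 2 and KO media 3, and 12 without WT library 3 in both cultures (added after seeing the data). Relative to the chain total it was 1, Trgv2, which as a gamma segment kept its main fit, so no alpha or beta segment was called. Leaving out 1 library gave 1 to 7. For KO against WT in gel (17 calls), it was 5 with total counts alone, 26 with no filter, 10 relative to the chain total, 8 without WT gel 2 and KO media 3, and 11 families (added after seeing the data); leaving out 1 library gave 5 to 22. With no filter, KO against WT in media gave 1 and the interaction 2; families gave the interaction 1, and leaving out 1 library 0 to 1, the 1 without WT media 1. DESeq2 gave 7 for KO gel against KO media, 19 for KO against WT in gel and 0 elsewhere. Total counts alone moved the median of all genes by 0.12 in the interaction.

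A replicate block raised the calls to 19 for KO gel against KO media and 8 for the interaction, and gave 22 for KO against WT in gel. For the last of these the block joined KO and WT libraries of 1 number, for which the labels give no basis. Over all genes, same-numbered KO and WT gel libraries correlated at -0.19 to 0.05. The share of all genes called with the block is not given here, so these counts have no background beside them. By the labels the replicate numbers share only a number, and the block is given for that reason here alone. Same-numbered libraries of the 2 cultures correlated at 0.06 to 0.17 in KO and 0.06 to 0.51 in WT over all genes, over alpha shares at -0.17 to 0.30 in KO and 0.45 to 0.76 in WT, and over beta shares at -0.29 to 0.15 in KO and 0.60 to 0.70 in WT. Over V shares each WT library correlated best with its own number (other numbers -0.62 to 0.18 in alpha and -0.59 to 0.08 in beta), a hint from the data that the WT numbers belong together.

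Effective numbers of alpha segments in KO gel and KO media were 90.0 and 88.4 from raw counts, and 87.6 and 86.4 without pseudogenes (86.2 in WT gel). Merged to families they were 13.4, 13.4, 13.5 and 13.4 in KO gel, KO media, WT gel and WT media. For beta they were 16.1, 16.2, 16.2 and 16.4 from raw counts, 10.7, 10.9, 10.6 and 10.95 by family, and 15.5, 15.7, 15.6 and 15.8 without pseudogenes. The largest alpha share was 3.93% in KO gel and 4.26% in KO media from raw counts, and by family 14.7, 14.4, 14.5 and 14.2%; the largest beta family held 24.5, 23.5, 26.1 and 25.2%. With total counts alone, the summed alpha level was 192 CPM in KO gel and 222 CPM in WT gel, and the summed beta level 392 CPM in KO gel. Thinning to the lowest chain total moved no effective number by more than its SD. Depth limits delta and gamma segments most, since the shallowest library has 49 counts for 6 delta, 152 for 7 gamma and 5800 for 130 alpha segments.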
